A study of Mus musculus with 22 samples.

Results

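The immediate early AP-1 and stress genes are a set of 10 genes, Fos, Fosb, Jun, Junb, Egr1, Atf3, Ier2, Dusp1, Nr4a1 and Zfp36, out of 19752 genes measured. Members were taken by name, as the probes with a single gene symbol among these 10, and each of the 10 had 1 probe. The arrays (Affymetrix, whole-transcript) hold RNA of thymic medullary epithelial cells, or MECs, from C57Bl/6 mice, which were sorted alive by the absence of CD45, little Ly51 and much MHCII. Aire, which was deleted in the knockout (KO, Aire-/-) and intact in the wild type (WT, Aire+/+), is a regulator through which MECs express many genes of peripheral tissues. The 22 arrays held 2 KO EtopoTopo, 3 KO Topo, 2 KO Etopo and 3 KO DMSO arrays, and 3 each of WT EtopoTopo, WT Topo, WT Etopo and WT DMSO. Etopo is commonly short for etoposide and Topo for topotecan, drugs that block type II and type I topoisomerases and leave breaks in DNA, but the labels give only the short forms. DMSO is the vehicle. How much drug was given, and for how long, was not analysed here.

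The 5 EtopoTopo arrays, WT Etopo 3 and WT DMSO 3 are of mice aged 4 weeks and the remaining 15 arrays of mice aged 6 weeks, so in KO the EtopoTopo and DMSO groups differ in age as well as treatment. WT Topo 2, WT Etopo 2 and WT DMSO 1 are labelled male and the others female. WT EtopoTopo 1 and 2 carry both drugs in their title and Etopo alone in their treatment label. The labels do not say how many mice went into an array, so p-values measure the spread between arrays, which may be technical. Median intensity was 236.15 to 263.57 per array. The epithelial surface gene Epcam read 10.37 to 10.81 in KO and 10.64 to 10.92 in WT on the log2 scale. The Aire probe read 11.43 on KO EtopoTopo 1, 11.78 on KO Topo 1 and 12.54 to 12.96 on the other 8 KO arrays, against 11.27 to 12.44 in WT. It was not lower in KO as a group, and since the sources used here do not say which part of Aire is deleted or where the probe lies, it does not check the genotype labels.

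Immediate early genes are transcribed within minutes of a stimulus, without new protein synthesis, when kinases activate factors already bound at their promoters. Fos, FosB, Jun and JunB are subunits of AP-1, a dimer that binds DNA, and ATF3 is a related leucine zipper factor induced by stress. EGR1 and NR4A1 are transcription factors of the zinc finger and nuclear receptor families, DUSP1 removes phosphate from MAP kinases and ZFP36 binds AU-rich messenger RNAs and speeds their decay. Cutting a tissue apart and sorting its cells is also known to induce these genes.

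Because the genes moved together from array to array, the 250 bases before each annotated start were searched (RefSeq, assembly GRCm38.p6), and 8 members had a window: Fos, Fosb, Jun, Junb, Atf3, Dusp1, Nr4a1 and Zfp36. The core of the cyclic AMP response element, TGACG on either strand, stood in 6 of the 8 windows, against 17.8% of 32851 promoters searched the same way. Nr4a1 held 4 copies, Dusp1 3, Fos 2, and Fosb, Junb and Atf3 1 each, while these letters are not in the Jun and Zfp36 windows. The full element TGACGTCA, which holds the core on both strands, stood in the Dusp1 window, against 1.55% of all promoters. The AP-1 site TGACTCA is not among the letters of the 8 windows and stood in 4.46% of all promoters. The CArG box, the site of serum response factor, stood in the Zfp36 window, against 1.47%. A match is a description of the letters and was not tested as a binding site. The windows of Fos, Junb, Atf3 and Dusp1 are shown, since they hold the core and lie wholly before the annotated gene. Each is given 5′ to 3′ on the strand of the gene, and capitals mark TGACG or its reverse complement CGTCA.
Fos, chr12:85473640-85473889, plus strand: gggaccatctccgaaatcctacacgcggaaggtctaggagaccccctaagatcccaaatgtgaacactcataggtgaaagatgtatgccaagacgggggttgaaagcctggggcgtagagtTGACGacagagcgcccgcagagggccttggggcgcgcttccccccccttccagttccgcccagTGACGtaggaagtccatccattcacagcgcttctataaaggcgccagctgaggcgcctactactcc
Junb, chr8:84978749-84978998, minus strand: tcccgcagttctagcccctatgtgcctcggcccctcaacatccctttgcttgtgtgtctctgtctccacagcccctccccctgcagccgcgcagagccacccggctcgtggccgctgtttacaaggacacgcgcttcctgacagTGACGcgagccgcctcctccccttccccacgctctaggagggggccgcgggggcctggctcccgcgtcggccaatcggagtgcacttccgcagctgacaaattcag
Atf3, chr1:191183334-191183583, minus strand: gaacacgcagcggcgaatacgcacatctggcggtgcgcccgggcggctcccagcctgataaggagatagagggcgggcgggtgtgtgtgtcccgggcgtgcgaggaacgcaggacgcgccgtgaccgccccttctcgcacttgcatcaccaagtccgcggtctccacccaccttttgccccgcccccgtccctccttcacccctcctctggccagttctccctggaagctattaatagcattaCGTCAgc
Dusp1, chr17:26508473-26508722, minus strand: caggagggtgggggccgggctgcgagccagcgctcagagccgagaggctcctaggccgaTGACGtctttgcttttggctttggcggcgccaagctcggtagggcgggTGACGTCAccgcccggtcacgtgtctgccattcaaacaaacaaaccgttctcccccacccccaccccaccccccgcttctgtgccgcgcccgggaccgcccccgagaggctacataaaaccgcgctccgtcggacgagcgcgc

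The genes lie at separate loci, with Fos at chr12:85473890-85477274, Jun at chr4:95049036-95052222, Junb at chr8:84976909-84978748, Atf3 at chr1:191170296-191183333 and Dusp1 at chr17:26505591-26508472. Fosb (chr7:19302696-19310118) shares chromosome 7 with Zfp36 (chr7:28376784-28379228). Ier2 (chr8:84661331-84662852) lies near Junb on chromosome 8. Nr4a1 lies at chr15:101253902-101274795 and Egr1 at chr18:34861207-34864956.

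Each gene is described below by its log2 intensity, with the arrays of a group in the order of their numbers. Fos, the founding AP-1 subunit, read 8.25 and 9.05 in KO EtopoTopo, 11.42, 9.72 and 10.36 in KO Topo, 9.75 and 10.43 in KO Etopo and 11.32, 9.74 and 10.07 in KO DMSO. In WT it read 9.99, 9.44 and 9.35 in EtopoTopo, 10.33, 10.78 and 10.59 in Topo, 10.13, 10.45 and 9.21 in Etopo and 11.23, 9.51 and 8.90 in DMSO. The highest 3 of the 22 values thus belonged to KO Topo 1, KO DMSO 1 and WT DMSO 1, and the KO EtopoTopo arrays lay below the KO DMSO arrays without overlap. Fosb, whose product pairs with Jun proteins as Fos does, had the widest range of the set, 3.47 log2 units. It read 8.95 and 9.91 in KO EtopoTopo, 11.94, 9.98 and 10.83 in KO Topo, 10.18 and 10.80 in KO Etopo and 12.33, 10.42 and 10.43 in KO DMSO. Its WT values were 10.28, 9.49 and 8.86 in EtopoTopo, 10.27, 11.26 and 10.49 in Topo, 9.93, 10.48 and 9.37 in Etopo and 12.01, 9.14 and 9.23 in DMSO. The same 3 arrays were again the highest, and the other 2 WT DMSO arrays were among the lowest.

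Jun, the partner that Fos proteins need to bind DNA, was the steadiest of the set, with a within-group SD of 0.33 against 0.94 for Fosb. It read 9.90 and 10.50 in KO EtopoTopo, 11.56, 11.48 and 11.79 in KO Topo, 11.31 and 11.90 in KO Etopo and 12.20, 11.58 and 11.75 in KO DMSO. In WT, Jun stood at 11.62, 11.00 and 11.12 in EtopoTopo, 11.60, 12.03 and 11.99 in Topo, 11.87, 11.84 and 11.36 in Etopo and 12.04, 11.26 and 11.21 in DMSO. Both KO EtopoTopo arrays lay below the other 20 arrays for this gene. Junb, an AP-1 subunit that can also restrain Jun, had a range of 1.91, with 8.93 and 10.22 in KO EtopoTopo against 10.78, 10.37 and 10.31 in KO DMSO. Only KO EtopoTopo 1 was far from the rest for Junb, since KO EtopoTopo 2 lay just below the nearest KO DMSO array.

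Atf3 read 9.97 and 10.17 in KO EtopoTopo, 12.26, 10.22 and 10.74 in KO Topo, 10.26 and 10.64 in KO Etopo and 12.16, 10.32 and 10.26 in KO DMSO. The WT values of Atf3 were 10.44, 10.54 and 10.26 in EtopoTopo, 10.47, 11.28 and 10.64 in Topo, 10.33, 10.57 and 10.03 in Etopo and 11.81, 9.83 and 9.98 in DMSO. Outside the 3 arrays that were highest for Fos, Atf3 exceeded 11 on WT Topo 2 alone. Egr1, a zinc finger factor, ranged over 1.70 log2 units, with 10.22 and 11.07 in KO EtopoTopo against 11.92, 11.34 and 11.23 in KO DMSO. Its WT Topo values of 11.37, 11.75 and 11.40 lay between the first WT DMSO array, at 11.85, and the other 2, at 10.90 and 10.78. Nr4a1, an orphan nuclear receptor, read 10.41 on KO DMSO 1, 10.24 on WT DMSO 1 and 9.42 on KO Topo 1, and between 7.94 and 9.05 on the other 19 arrays. Ier2, a small nuclear protein gene of the immediate early class, had the smallest range, 1.35, and read 7.93 and 7.87 in KO EtopoTopo against 8.68, 8.29 and 8.67 in KO DMSO.

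The feedback gene Dusp1 read 9.51 and 11.02 in KO EtopoTopo, 12.21, 11.31 and 11.90 in KO Topo, 11.36 and 11.88 in KO Etopo and 12.61, 11.41 and 11.40 in KO DMSO. In WT it stood at 11.68, 11.40 and 11.48 in EtopoTopo, 11.90, 12.28 and 12.09 in Topo, 11.71, 12.03 and 11.10 in Etopo and 12.61, 11.27 and 11.14 in DMSO. The lower KO EtopoTopo array was the lowest of all 22 for this gene, while the WT EtopoTopo arrays stayed close to one another. Zfp36 ranged over 1.73, with 12.30 on KO Topo 1 as the highest and 10.57 on KO EtopoTopo 1 as the lowest value. Its KO EtopoTopo values were 10.57 and 11.33, against 12.01, 11.43 and 11.46 in KO DMSO.

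**Figure D1:**
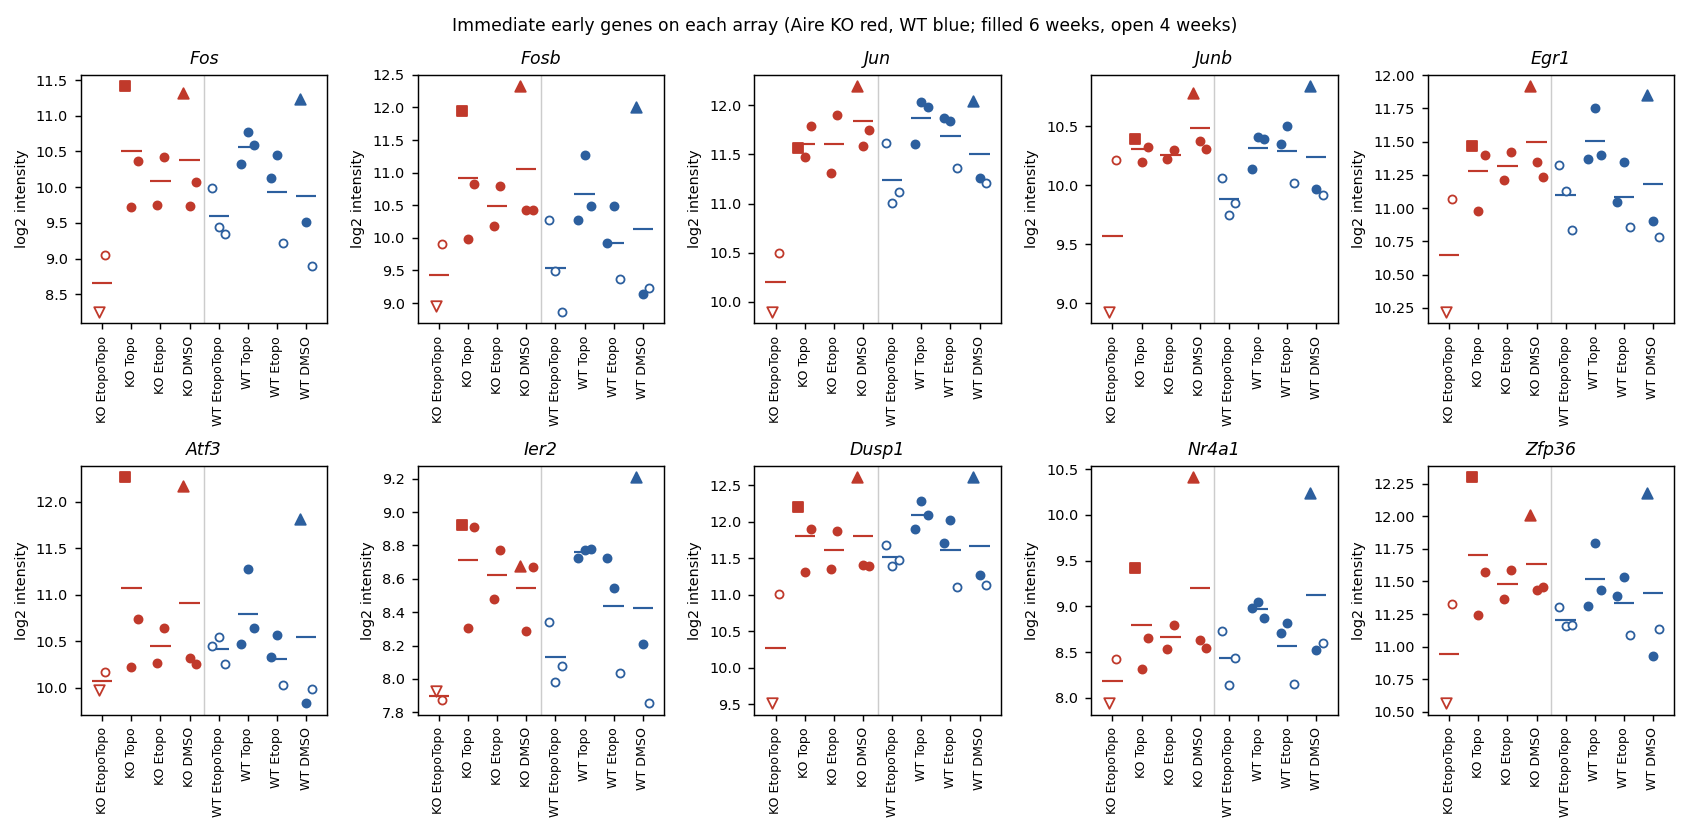
Log2 intensity of the 10 genes on each of the 22 arrays, 1 panel a gene, with each group's mean as a bar. KO is red and WT blue, filled symbols are mice of 6 weeks and open symbols of 4 weeks, triangles pointing up mark KO DMSO 1 and WT DMSO 1, squares KO Topo 1 and triangles pointing down KO EtopoTopo 1. Fosb spans 3.47 log2 units, and in both DMSO groups the first array stands above the other 2 for all 10 genes.

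Single arrays carried much of the spread. KO DMSO 1 and WT DMSO 1 were the highest of their group for 10 of 10 genes and KO Topo 1 for 9 of 10. KO EtopoTopo 1 was the lower of its pair for 9 of 10. WT DMSO 1 is the only DMSO array labelled male. The other 2 arrays labelled male were also the highest of their group, WT Topo 2 for 9 of 10 genes and WT Etopo 2 for 8. Among arrays labelled female, so were KO Etopo 2 for 10 of 10 and WT EtopoTopo 1 for 9. The part of sex in these values was not tested. The mean over the 10 genes was 9.22 on KO EtopoTopo 1, 11.19 on KO Topo 1, 11.44 on KO DMSO 1 and 11.40 on WT DMSO 1, against 9.88 to 10.94 on the other 18 arrays. On WT DMSO 1 the genes exceeded the mean of the other 2 WT DMSO arrays by a median of 1.29 (range 0.80 to 2.82), where the median of all genes was -0.04. Fosb, at 7.07-fold, had the highest such difference of all 19752 genes, and Fos, Atf3 and Nr4a1 ranked 5, 7 and 8, with 2.03, 1.90 and 1.68. In all, 8 of the 10 genes were among the 100 highest of the 19752. The set was chosen with earlier results of these data known, in which single DMSO arrays stood out. These ranks therefore describe the arrays and test nothing. On KO DMSO 1 the median was 0.92 (0.19 to 1.91), led by Fosb with 1.91, Atf3 with 1.87 and Nr4a1 with 1.82, and Ier2 had the smallest difference, 0.19. On KO Topo 1 the median was 0.75 (-0.07 to 1.79), with Atf3 at 1.79, Fosb at 1.54 and Fos at 1.38, and Jun at -0.07. The AP-1 partner Jun was thus level on an array where Fos and Fosb were high.

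**Figure D2:**
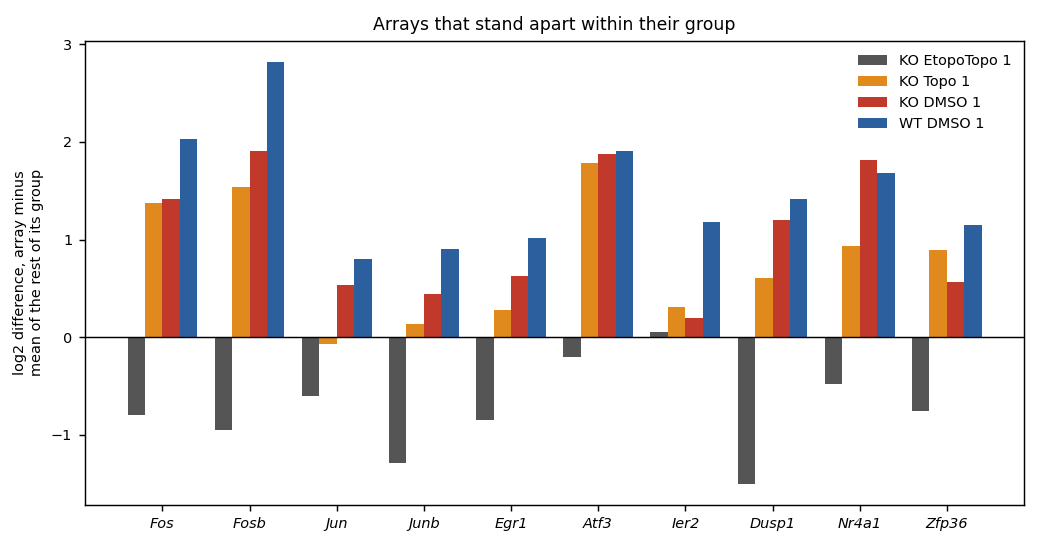
Log2 difference of 4 single arrays from the mean of the other arrays of their group, for each of the 10 genes (bars start at 0). Fosb reaches 2.82 on WT DMSO 1, all 10 bars of KO DMSO 1 and of WT DMSO 1 lie above 0, and on KO EtopoTopo 1 Dusp1 has the lowest bar.

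Transcripts of other cells moved on the same arrays. Ptprc, which encodes CD45, the protein by which the sort removes leukocytes, read 7.72 on KO EtopoTopo 1, 8.43 on KO Topo 1, 10.04 on KO DMSO 1 and 8.98 on WT DMSO 1, against 7.04 to 7.55 on the other 18. The mean of 15 thymocyte genes was 7.49, 7.53, 8.57 and 8.18 on these 4 arrays, against 6.97 to 7.49 on the others, and 14, 13, 14 and 13 of the 15 exceeded the rest of their group. The mean of 14 macrophage and dendritic cell genes was 7.84, 8.23, 7.95 and 8.30, against 7.61 to 8.21. On KO EtopoTopo 1 the mean of 7 epithelial genes was 10.25, against 11.04 to 11.56 on the other 18 arrays and 11.17 to 11.46 on the 3 that were high. That array also had the narrowest spread of values, 3.60 log2 units between the 10th and 90th percentile of genes, against 4.07 to 4.71 on the other 21. The part of these differences in the levels of the immediate early genes was not tested, and in sorted samples fewer cells of a type and less RNA per cell cannot be told apart.

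**Figure D3:**
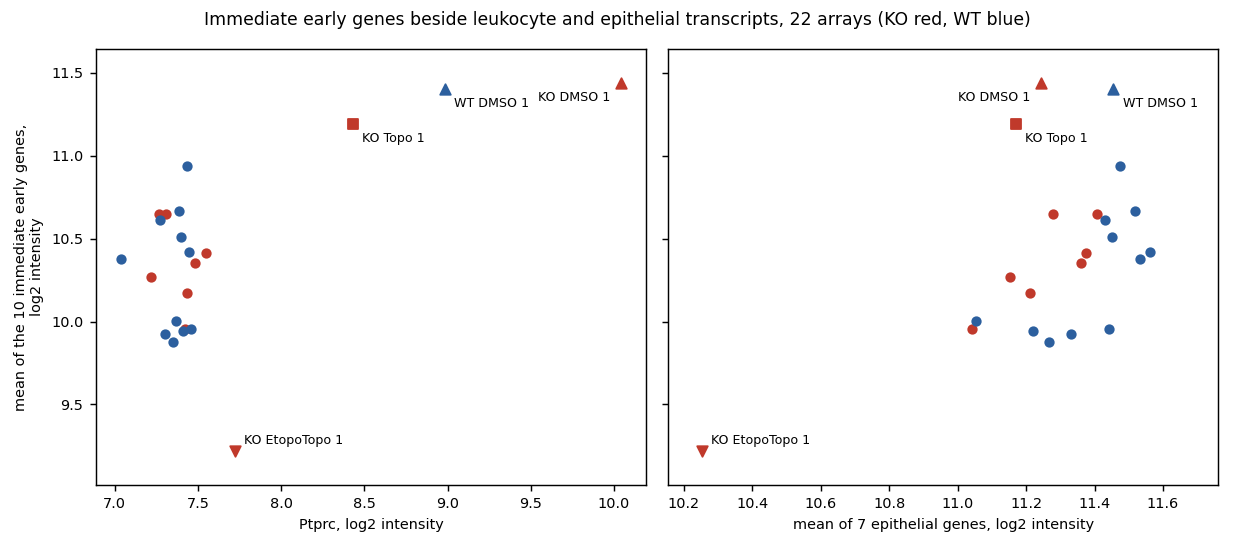
Mean log2 intensity of the 10 immediate early genes (vertical) against Ptprc (left) and the mean of 7 epithelial genes (right) on 22 arrays, KO red and WT blue. KO Topo 1, KO DMSO 1 and WT DMSO 1 lie at a Ptprc of 8.43 to 10.04, right of the other arrays, and KO EtopoTopo 1 lies lowest on both measures of the right panel.

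The 10 genes rose and fell together within groups. Over the 45 pairs of genes, Pearson's r of the deviations from the group means over the 22 arrays was 0.59 to 0.95 (median 0.85), and 0.46 to 0.96 (median 0.79) without the 4 arrays above. Fos and Fosb were the closest pair (0.95), followed by Egr1 and Dusp1 (0.95), and Junb and Ier2 were the least alike (0.59). These points share arrays, and the values are descriptions without a test. Among all other genes, those closest to the mean of the set were Socs3 (r = 0.95), Klf6 (0.94), Trib1 (0.94), Nfkbid (0.94), Slc25a25 (0.94), Usp45 (0.93), Plk3 (0.93), Ifrd1 (0.92) and Natd1 (0.92). Socs3 damps cytokine receptor signalling, Klf6 is a zinc finger factor, and Nfkbid belongs to the IkB proteins. Over the same 17 arrays, r was 0.92 for Socs3, 0.86 for Ifrd1, 0.85 for Klf6 and 0.70 for Usp45. Of the 50 closest genes, 12 were on a list of 52 other immediate early genes, which made up 0.263% of all genes.

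Under both drugs in KO, 5 of the 10 genes fell against KO DMSO, where 11.7% of all genes were called lower and 22.8% called either way (limma, adjusted p under 0.05). The AP-1 subunits Fos, Jun and Junb, with Egr1 and Dusp1, made up the 5. Jun averaged 10.20 ± 0.43 (SD, n = 2) in KO EtopoTopo and 11.84 ± 0.32 (SD, n = 3) in KO DMSO, a change of -1.65 ± 0.26 (SE, adjusted p = 0.00175). Fos fell by 1.73 ± 0.55 (adjusted p = 0.0325), Dusp1 by 1.54 ± 0.43 (0.0203), Junb by 0.92 ± 0.28 (0.0274) and Egr1 by 0.86 ± 0.28 (0.0375). The change of Fosb, -1.63 ± 0.71, was as large but did not pass (adjusted p = 0.0898), nor did Nr4a1 (-1.02, 0.105), Atf3 (-0.84, 0.247), Zfp36 (-0.69, 0.104) and Ier2 (-0.65, 0.085). The median of the set was -0.97, against 0.06 over all genes, and for 10 of 10 genes both KO EtopoTopo arrays lay below the 3 KO DMSO arrays, as for 18.9% of all genes.

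These calls rested on a few arrays and moved with the normalization. After quantile normalization, 2 of the 10 passed, where 14.7% of all genes did. KO EtopoTopo 1 also had the narrowest spread of values of all arrays, and the part of this in the fall was not tested. Without KO EtopoTopo 1, the array with low epithelial transcripts, 0 of 10 genes passed in limma, though 1, Jun, reached an unadjusted p under 0.05, and the share of all genes called was 0.344%. Jun then changed by -1.34 ± 0.32 (adjusted p = 0.0673) and Junb by -0.27. Without KO DMSO 2 or KO DMSO 3, 4 of the 10 passed, where 15% and 9.37% of all genes were called. Without KO DMSO 1, Jun alone passed (-1.47 ± 0.28, adjusted p = 0.00614), where 14.7% of genes were called. With all 4 arrays that stood apart left out, an alternative added after the data were seen, Jun alone passed again, with -1.17 ± 0.27 (adjusted p = 0.0289) where 3.28% of genes were called. With age as a covariate, 0 of 10 passed (1 at an unadjusted p under 0.05) and 0.0253% of all genes did, and Jun changed by -1.18 ± 0.34 (adjusted p = 0.154). Age varies within a group only in WT DMSO and WT Etopo, so the age term rests on those groups. This fit cannot tell age from treatment in KO. Over 16 alternatives, Jun stayed called in 12, Dusp1 in 10, Junb in 8, Fos in 7 and Egr1 in 5.

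In WT, both drugs together changed none of the 10 genes past the test. In limma 0 passed, 0 reached an unadjusted p under 0.05, and 10.9% of all genes were called. The changes ran from -0.69 ± 0.42 for Nr4a1 to -0.08 ± 0.25 for Egr1, with a median of -0.27. The 95% intervals allow changes as low as -1.90 for Fosb and -1.31 for Fos. Without WT DMSO 1, 8 of the 10 changes turned above 0, among them Atf3 with 0.51 ± 0.48 and Fos with 0.39 ± 0.46. That array was the highest WT DMSO array for all 10 genes, so leaving it out raises each change by construction.

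A difference between KO and WT in the effect of both drugs was called for Jun alone among the 10 genes. KO minus WT, the difference of the 2 changes was -1.39 ± 0.35 (adjusted p = 0.0389), where 0.106% of all genes were called lower and 2.46% either way. Dusp1 had a difference of the same size, -1.39 ± 0.58, that did not pass (adjusted p = 0.269), and Fos had -1.44 ± 0.74 (0.37). All 10 differences were below 0, with a median of -0.74 against 0.03 over all genes. Age changes along with treatment here, since KO EtopoTopo is of 4 weeks and KO DMSO of 6, while WT DMSO holds both ages. Without KO EtopoTopo 1 the difference of Jun was -1.08 ± 0.39 (adjusted p = 0.408), and over 23 alternatives it passed in 10, with values from -1.69 to -1.08.

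Set directly against WT EtopoTopo, where all arrays are from mice of 4 weeks, KO EtopoTopo had less Jun, with a change of -1.05 ± 0.26 (adjusted p = 0.0116). Of all genes, 10.4% were called and 6.12% called lower. Jun was the single member called. Dusp1 changed by -1.26 ± 0.43 (adjusted p = 0.0703) and Fos by -0.94 ± 0.55 (0.321). For 5 of 10 genes, Fos, Jun, Atf3, Ier2 and Dusp1, both KO arrays lay below the 3 WT arrays, as for 14.9% of all genes. Without KO EtopoTopo 1 the change of Jun was -0.75 ± 0.32 (adjusted p = 0.207), and without WT EtopoTopo 1 it was -0.86 (adjusted p = 0.0684). Apart from these 5 genes, KO EtopoTopo 2 alone lay above all 3 WT arrays for Junb and Zfp36.

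**Figure D4:**
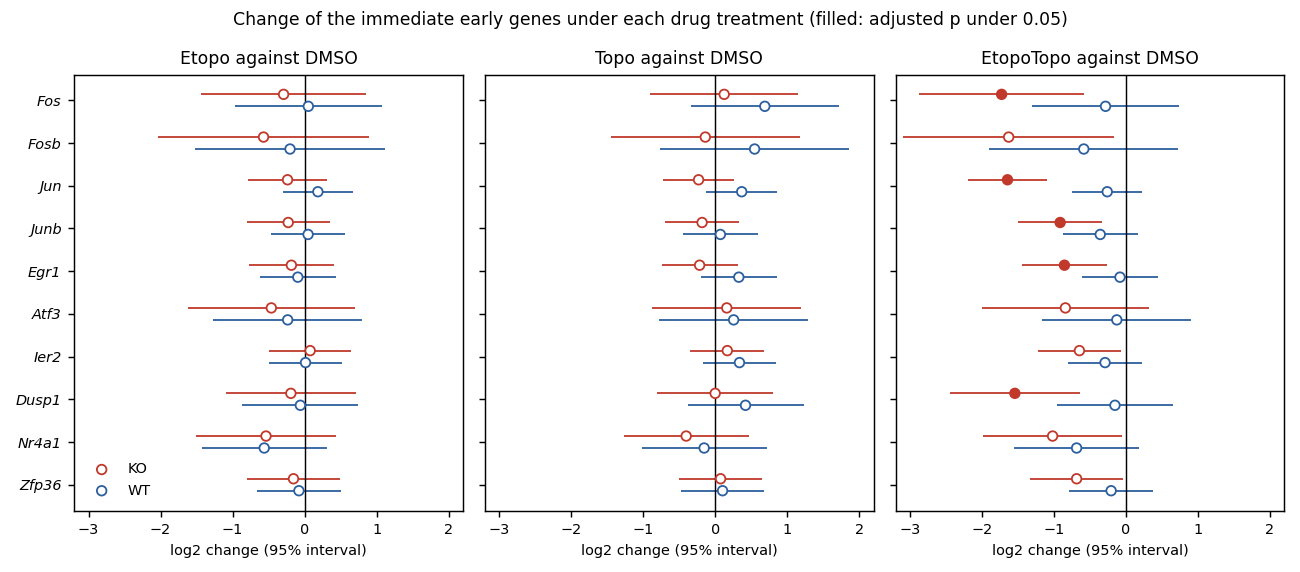
Log2 change of each gene against DMSO under Etopo, Topo and both drugs (points, with 95% intervals), KO in red above WT in blue. Filled points passed at an adjusted p under 0.05, which 5 KO points did under EtopoTopo and none under Etopo or Topo.

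Under Topo alone in WT, the distance of the 10 genes from DMSO depended on WT DMSO 1. With all arrays, 0 of 10 genes passed in limma, 0 reached an unadjusted p under 0.05, and 2.21% of all genes were called. The changes were above 0 for 9 of 10 genes, up to 0.69 ± 0.49 for Fos, with a median of 0.33 against 0.00 over all genes. The WT Topo arrays agreed closely, with Ier2 at 8.72, 8.78 and 8.78, while WT DMSO read 9.21, 8.21 and 7.85. All 3 WT Topo arrays lay above WT DMSO 2 and WT DMSO 3 for 10 of 10 genes, as for 13.6% of all genes, and WT DMSO 1 lay above all 3 WT Topo arrays for 10 of 10. Without WT DMSO 1, Fosb changed by 1.49 ± 0.56, Fos by 1.36 ± 0.46, Atf3 by 0.89 ± 0.48 and Ier2 by 0.73 ± 0.20. Leaving out the highest DMSO array raises each change by construction. Of the 10, 0 passed in limma (lowest adjusted p 0.0964 for Ier2), where 1.11% of all genes did. At an unadjusted p under 0.05 there were 6 of the 10, and the share of all genes at that level was not computed for this fit. With all arrays, 2275 of 19752 genes reached it.

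With WT DMSO 1, KO DMSO 1 and KO Topo 1 left out of the fit together, added after the data were seen, Atf3 (adjusted p = 0.0347) and Fos (0.0372) passed in WT Topo against WT DMSO, where 2.08% of all genes did. With KO EtopoTopo 1 left out too, 6 of 10 passed, Fos, Fosb, Egr1, Atf3, Ier2 and Dusp1, with changes of 0.66 to 1.49, where 4.7% of all genes did. These fits changed the spread shared by all groups as well as the WT DMSO mean. The arrays left out are those on which these same genes stood apart, so the calls describe the remaining arrays and are no independent test. Of the 2 remaining WT DMSO arrays, WT DMSO 3 came from mice of 4 weeks and the WT Topo arrays from mice of 6 weeks.

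In KO under Topo the 10 genes stayed near DMSO, with 0 of 10 genes called in limma, 0 at an unadjusted p under 0.05 and 1.03% of all genes called. The changes ran from -0.40 ± 0.42 for Nr4a1 to 0.17 ± 0.25 for Ier2 (median -0.07). KO Topo 1 and KO DMSO 1 both carried high values, and with both and WT DMSO 1 out the changes lay between -0.11 and 0.20. The difference between KO and WT in the Topo effect was called for 0 of 10 genes, with 0 at an unadjusted p under 0.05 and 0.0759% of all genes called. The lowest difference was -0.69 ± 0.89 for Fosb.

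Etopo alone changed none of the 10 genes past the test in either genotype. In KO, 0 of 10 were called by limma and 0 reached an unadjusted p under 0.05, where 0.0% of all genes were called, and the changes lay between -0.57 ± 0.71 for Fosb and 0.08 ± 0.28 for Ier2. In WT, 0 of 10 were called and 0 reached an unadjusted p under 0.05, where 0.00506% of all genes were called, with changes from -0.56 ± 0.42 for Nr4a1 to 0.18 ± 0.24 for Jun. The difference of the Etopo effect between KO and WT was called for 0 of 10 genes, 0 of them at an unadjusted p under 0.05, and for 0.0% of all genes. Within WT Etopo, the array from mice of 4 weeks was the lowest for 10 of 10 genes, with Fos at 9.21 against 10.13 and 10.45. Over all groups, the mean of the set was 9.22 to 10.38 (median 9.94) on the 7 arrays of 4 weeks and 9.96 to 11.44 (median 10.61) on the 15 of 6 weeks, and 5 of those 7 are EtopoTopo arrays.

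Loss of Aire under DMSO did not move the set past the test, although 19.4% of all genes were called. Of the 10 genes, 0 were called by limma and 0 reached an unadjusted p under 0.05. The KO minus WT change was above 0 for 10 of 10, from 0.08 ± 0.42 for Nr4a1 to 0.93 ± 0.63 for Fosb (adjusted p = 0.365), with a median of 0.28 against -0.01 over all genes. The 95% interval of Fosb ran from -0.38 to 2.24. Leaving out WT DMSO 1 brought Fosb to 1.87 ± 0.56 (adjusted p = 0.0209, where 21.1% of genes were called), and leaving out KO DMSO 1 brought it to 0.29 ± 0.65. With the 4 arrays out, KO DMSO 2 and 3 lay above WT DMSO 2 and 3 for 9 of 10 genes, as for 27.8% of all genes, and Fosb was called at 1.24 ± 0.40 (adjusted p = 0.029, also 27.8% of genes called). The arrays left out are those on which these same genes stood apart, so the values without them are descriptions and no independent test. Under Topo, 0 of 10 were called between KO and WT, 0 at an unadjusted p under 0.05, against 15.0% of all genes. Under Etopo it was 0 of 10, again 0 at an unadjusted p under 0.05, against 12.6%.

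Other genes of the immediate early class fell with the set under both drugs in KO. Of 52 on a list that leaves out the 10, 13 fell and 0 rose against KO DMSO, with a median of -0.37, where 11.7% of all genes fell and 11.1% rose. Pim1, a survival kinase, fell by 1.73 ± 0.35 (adjusted p = 0.00536), Ccn1, a secreted matrix protein, by 1.29 ± 0.32 (0.0119), Klf6 by 1.23 ± 0.34 (0.0186) and the MAP kinase phosphatase Dusp4 by 1.07 ± 0.25 (0.00989). Heat shock genes did likewise, with 9 of 13 fallen and 0 risen (median -0.73). The chaperone genes Dnajb1, Hspd1, Hspe1 and Dnajb4 fell by 1.61, 1.34, 1.18 and 1.05. In the MAP kinase cascade that feeds the immediate early genes the count was near the share of all genes, with 3 of 24 fallen, Map2k1 by 0.72, Map2k3 by 0.45 and Mapk9 by 0.44, and 1 risen, the factor Atf2, by 0.45. Epithelial genes fell too, 5 of 7 with a median of -0.66, as did 4 of 13 genes of mature MECs (median -0.28). The mean of these 13 was 11.18 on KO EtopoTopo 1, where 0 of 13 exceeded KO EtopoTopo 2, against 11.41 to 11.85 on the 18 arrays that did not stand apart. Without KO EtopoTopo 1, 0 of the 52, 0 of the 13, 0 of the 24 and 0 of the 7 passed in limma (5, 7, 3 and 2 at an unadjusted p under 0.05), with medians of -0.28, -0.47, -0.07 and -0.20. Without KO DMSO 1, 7 of the 52 and 5 of the 13 fell, where 14.7% of all genes were called either way. The share of all genes that fell was not computed for this fit.

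In WT under both drugs, 1 of the 52 rose, the polo-like kinase gene Plk2 (0.90 ± 0.27, adjusted p = 0.0317), and 2 fell, Gadd45b by 0.87 ± 0.18 (0.00399) and Maff by 0.63 ± 0.19 (0.0314). Of all genes, 3.6% rose and 7.28% fell in this comparison, so both counts lay below the share of all genes. Of the 13 heat shock genes, 3 fell, Hspa5 by 1.01 ± 0.20 (0.00238), Hspe1 by 0.84 ± 0.22 (0.0183) and Hspd1 by 0.76 ± 0.20 (0.0188). Hspd1 and Hspe1, the mitochondrial chaperonin pair, therefore fell in both genotypes. Gadd45b and Hspa5 kept the call whichever single array was left out, and each kept it in 16 of 18 alternatives. All 3 WT EtopoTopo arrays are of 4 weeks, and 2 of the 3 WT DMSO arrays are of 6 weeks. With age as a covariate, 2.34% of all genes were called in this comparison, against 10.9% without it. WT EtopoTopo 1 and 2 also carry Etopo alone in their treatment label. Maff, Plk2, Hspe1 and Hspd1 each lost it without some arrays, among them WT EtopoTopo 2 for all 4 and WT DMSO 1 for Maff, Hspe1 and Hspd1. Topo alone changed 0 of the 52 in limma in KO (1 at an unadjusted p under 0.05) and 0 in WT (5), and 0 of the 13 in KO (3) and in WT (3). Etopo alone changed 0 of the 52 in KO (1) and in WT (0), and 0 of the 13 in KO (1) and in WT (0).

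Between genotypes, a few genes of the same lists differed. Ppp1r15a, which restores protein synthesis after stress, was higher in KO under DMSO by 1.09 ± 0.25 (adjusted p = 0.00361), under Etopo by 0.91 ± 0.28 (0.0372) and under Topo by 1.14 ± 0.25 (0.00311). Under DMSO, 3 of the 52 were higher in KO (Npas4 by 0.65 and Gadd45a by 0.61 beside Ppp1r15a) and 1 lower, Ccn2, which fell by 0.46. Both counts lay below the shares of all genes, 7.4% higher and 12.0% lower. Zfp36l1, a relative of Zfp36, was lower in KO under Etopo (-1.24 ± 0.27, 0.00332), Topo (-0.87 ± 0.25, 0.0179) and both drugs (-1.29 ± 0.27, 0.00323). Zfp36 itself differed by 0.14, 0.19 and -0.26 in these comparisons, with no call. Under both drugs 6 of the 52 were lower in KO, among them Plk2 (-1.10 ± 0.30, 0.0186), Ccn1 (-1.03 ± 0.32, 0.0377) and Sgk1 (-0.87 ± 0.23, 0.0178), and 1 higher, Maff (0.72 ± 0.21, 0.0272), where 6.12% of all genes were lower and 4.32% higher. The small heat shock gene Hspb1 was lower in KO under each of the 4 treatments, with changes of -0.99 under both drugs, -0.55 under Topo, -0.73 under Etopo and -0.75 under DMSO. Hmox1, of the same list, was lower under DMSO (-0.50), Etopo (-0.55) and Topo (-0.43). On the MAP kinase list, Map2k1 was higher in KO under DMSO (0.60) and Topo (0.70), and Mapk9 under DMSO (0.45). Under DMSO that made 2 of 13 heat shock genes lower and 2 of 24 MAP kinase genes higher, against 12.0% and 7.4% of all genes. Each call of Hmox1, Map2k1 and Mapk9 was lost on leaving out at least 1 array. Leaving out single arrays ended no call of Ppp1r15a under DMSO or Topo and none of Hspb1 under DMSO. Ppp1r15a under Etopo lost its call without WT Etopo 3 or either KO Etopo array. Hspb1 lost it under Etopo without KO Etopo 1 (-0.38, adjusted p = 0.504) or WT Etopo 2 (-0.64, 0.0692), and under Topo without any 1 of the 6 arrays. Zfp36l1 lost it under Etopo without KO Etopo 1 (-1.11, 0.0735), and under Topo without KO Topo 2 (-0.71, 0.0972) or WT Topo 2 (-0.74, 0.0937). Under DMSO, Npas4 lost it without KO DMSO 1 or WT DMSO 2 or 3, Gadd45a without KO DMSO 2 or 3 or WT DMSO 3, and Ccn2 without KO DMSO 1 or 2 or WT DMSO 2 or 3. Plk2, Ccn1, Sgk1 and Maff under both drugs each lost it without WT EtopoTopo 1 as well, Plk2 also without WT EtopoTopo 2, Ccn1 without KO EtopoTopo 2 and Maff without WT EtopoTopo 3. Without KO EtopoTopo 1, none of Zfp36l1, Plk2, Ccn1, Sgk1, Maff and Hspb1 was called under both drugs (limma, adjusted p of 0.0732 to 0.248).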

How the data were processed

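The 22 arrays were labelled by genotype, treatment and age, and groups came from the titles. The authors deposited 1 linear intensity per probe and array, and per the submitters' processing notes RMA and Affymetrix Power Tools were used (no versions given). For arrays there is no read depth, and their number sets the precision. Of 24922 probes, 21425 had 1 gene symbol in the platform annotation, 1399 several and 2098 none here. RefSeq (GRCm38.p6) held the gene identifiers of 21347 and changed 0 symbols. The probe with the highest mean was kept per gene, which left 19752 genes.

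Log2 of the intensity was tested in R 4.3.3 with limma 3.58.1 (lmFit and eBayes, all 22 arrays in 1 fit of the 8 group means, with 14 residual and 7.22 prior degrees of freedom). P-values were adjusted by Benjamini-Hochberg over all genes in each of 13 contrasts, and a gene was called at an adjusted p under 0.05. Changes carry the standard error (SE) of the fit. Tables and figures used Python 3.11.15, numpy 2.4.6, pandas 2.3.3 and matplotlib 3.10.9. The fit was tested on simulated data.

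The 10 genes and the gene lists were chosen with earlier results of these data known. All 10 are named, with up to 4 called genes of each list per contrast by size of change and the 10 genes closest to the set, leaving out small RNA and clone names. Of the lists, 52 of 52 other immediate early, 13 of 16 heat shock, 24 of 29 MAP kinase, 15 of 17 thymocyte and 6 of 7 B cell genes were measured. The mean of the 6 B cell genes was 7.60 to 7.94 over the arrays and that of 10 stroma and endothelium genes 8.09 to 8.40.

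Alternatives were quantile normalization, genes above the 25th percentile, an offset of 32, the mean over probes, age as a covariate, the replicate number as a block, array weights, the compared groups alone, each array left out, both first DMSO arrays left out, and both WT EtopoTopo arrays with conflicting labels left out. Deviations of same-numbered arrays were correlated to check the pairing by replicate number. Every pair exceeded 0.1 for WT Etopo with WT DMSO (0.34 to 0.59) and KO Topo with KO DMSO (0.17 to 0.41), and in no other comparison.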

Additional observations from a re-analysis of the deposited data

Results flagged for a closer look

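The change of Jun from DMSO to EtopoTopo differed between the genotypes by a test of the difference itself. KO minus WT, it was -1.39 ± 0.35 on the log2 scale (limma, adjusted p = 0.0389). Jun changed by -1.65 ± 0.26 in KO and by -0.26 ± 0.24 in WT. Treatment and age change together in this comparison, since KO EtopoTopo is of 4 weeks and KO DMSO of 6, while WT DMSO holds both ages. Of 23 alternatives the difference passed in 10, with -1.69 to -1.08. It did not pass with age as a covariate, or without the WT EtopoTopo arrays whose treatment label gives Etopo alone. The call was lost without KO EtopoTopo 1 (-1.08 ± 0.39, adjusted p = 0.408), and also without any 1 of WT EtopoTopo 1 or 3, KO DMSO 1 or 3 and WT DMSO 2 or 3.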

How the results depend on the processing

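No value of the 10 genes that was called turned its sign under an alternative. Of 2300 alternative values, 1916 kept direction and call, 57 lost the call, 38 gained one and 289 changed sign with no call on either side. The number of the 10 genes called moved as follows. For EtopoTopo against DMSO in KO (5) it was 2 after quantile normalization, 0 with age as a covariate, 0 with array weights, 0 with the compared groups alone, 2 without both first DMSO arrays and 1 without the 4 arrays that stood apart, and leaving out 1 array gave 0 to 6. For KO against WT under EtopoTopo (1) it was 0 with array weights, with the compared groups alone, without the WT EtopoTopo arrays labelled Etopo and without the 4 arrays, and 0 to 3 with 1 array left out. For the KO minus WT difference of the EtopoTopo effect (1) it was 0 under those 4 settings, after quantile normalization and with age, and 0 to 4 with 1 array left out. For Topo against DMSO in WT (0) it was 8 with array weights, 2 without WT DMSO 1, KO DMSO 1 and KO Topo 1 and 6 without the 4 arrays. For KO against WT under DMSO (0) it was 6 with array weights, 1 without the 4 arrays and 0 to 1 with 1 array left out. Array weights gave 2 for KO against WT under Topo (0) and 4 for the KO minus WT difference of the Topo effect (0). Of all genes, array weights called 23.1% for Topo against DMSO in WT and 42.6% for KO against WT under DMSO. They called 35% for KO against WT under Topo and 5.91% for the difference of the Topo effect. The estimate of the weights stopped before its convergence tolerance. Without both first DMSO arrays, 16.2% of all genes were called for EtopoTopo against DMSO in KO. In the other comparisons the count stayed at 0 under every alternative run.

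With the replicate block, 7 of the 10 genes were called for EtopoTopo against DMSO in KO, where 17.8% of all genes were. The count was 1 for KO against WT under EtopoTopo (9.28% of all genes), 1 for the difference of that effect (1.9%) and 0 elsewhere. Where the numbers paired the arrays, the block changed no call of the 10 genes. Over all genes, the count for EtopoTopo against DMSO in KO was 4513 and ranged from 0 to 5076 under other settings and from 68 to 9170 with 1 array left out, and for KO against WT under EtopoTopo it was 2063, 274 to 3132 and 1333 to 4952. The same 3 values for the other KO against WT counts were 3825, 3070 to 8412 and 2586 to 4167 under DMSO, 2482, 2222 to 6435 and 1179 to 2141 under Etopo, and 2961, 2742 to 6905 and 2047 to 2719 under Topo. Against DMSO they were 1, 0 to 1345 and 0 to 3 for Etopo in WT, 436, 230 to 4553 and 103 to 348 for Topo in WT, 2149, 251 to 6000 and 1110 to 1944 for EtopoTopo in WT, 0, 0 to 246 and 0 to 2 for Etopo in KO, and 204, 0 to 1368 and 1 to 181 for Topo in KO. For the differences of the effects they were 0, 0 to 624 and 0 to 1 for Etopo, 15, 0 to 1168 and 0 to 19 for Topo, and 486, 74 to 550 and 123 to 4178 for EtopoTopo. A group left with 1 array was assumed to vary like the other groups. Of 1002 alternative values of called genes on the other lists, 647 kept the call, 355 lost it and 0 turned sign. The cause of these moves was not tested.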
